A study of Mus musculus with 12 samples.

Results

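The interleukin-6 family of cytokines was followed across gingival RNA-seq libraries by 10 of the 21965 genes in the count table. They were listed by name as the cytokines Il6, Il11, Osm and Lif, the receptor chains Il6ra, Il6st, Osmr and Lifr, and the intracellular signal gene Stat3 with its inhibitor Socs3. The 12 libraries came from gingiva of mice under 12 weeks of age, in 4 groups of 3. WT naive and WT ligated libraries came from C57BL/6 mice, and CybbKO naive and CybbKO ligated libraries from Cybb-/- mice, in which Cybb, the gene for the catalytic subunit of the Nox2 oxidase, is disrupted in the germline and not in 1 cell type. Ligated mice had a silk thread tied around a maxillary molar for 8 days, a common model of periodontitis, and naive mice had none. Nothing in the labels says that each library was a separate mouse, so p-values measure the spread between these libraries. Levels are CPM, the counts of a gene relative to its library's total as scaled by edgeR's TMM factors, and all tests, unless another is named, are quasi-likelihood tests of edgeR on 1 fit of the 12 libraries, with Benjamini-Hochberg adjustment over 15046 genes. A gene was called when its adjusted p was under 0.05, and errors are SD over n = 3 libraries unless given as a standard error.

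Members of the IL-6 family share a receptor chain, gp130, encoded by Il6st. A complex of cytokine, gp130 and the other chains of its receptor activates JAK kinases bound to gp130, which phosphorylate STAT3. STAT3 enters the nucleus and turns on target genes, among them Socs3, whose protein binds gp130 and JAK and shuts the signal down, so that Socs3 mRNA is a widely used readout of the pathway. In the gum, IL-6 and oncostatin M are made by leukocytes and stromal cells during inflammation, act on fibroblasts, epithelium and endothelium, and can raise osteoclast formation. STAT3 is activated by phosphorylation, which mRNA does not measure.

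The libraries held 27958819 to 42613423 counts on genes. The targeted gene went against its label. Cybb (ENSMUSG00000015340; chromosome X, 9435252 to 9487771 of GRCm38, minus strand) had 5.06 ± 0.758 CPM in WT naive and 12.1 ± 3.43 in WT ligated libraries, against 47.9 ± 7.56 and 57.0 ± 6.31 in the naive and ligated libraries labelled CybbKO. Counts summed over a gene cannot tell an intact transcript from a disrupted one, so genotype comparisons below are between libraries by label. The tissue matched its label in its markers: the 10 oral epithelium genes summed to between 81010 and 150000 CPM in every library. Among the ligated libraries labelled CybbKO, replicate 2 stood apart, with a fibroblast marker sum of 3946 CPM against 10540 and 9522 in the other two, and WT ligated replicate 3 had the highest neutrophil and fibroblast sums of its group, at 4062 and 8133 CPM.

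DNA sequence before the start of 2 members is shown because these genes, Il6 and Socs3, carried the largest differences of a cytokine and of a pathway readout, and because STAT3 is known to act on the Socs3 promoter. RefSeq starts on GRCm38.p6 gave windows of 250 bases before the start for 9 of the 10 members, 11 windows in all, and Osm had none. The Il6 window is chr5:30012864-30013113 on the plus strand, and no annotated exon of Il6 lies in it. The Socs3 window overlaps 1 exon of a transcript of the gene, so only the 165 bases beyond that exon are printed, chr11:117969452-117969616 on the minus strand, or 250 to 86 bases before the start. Capitals mark the motifs searched on both strands. In Il6 they are an AP-1 motif at 249 to 243 and an NF-kB motif at 44 to 35 bases before the start, and in Socs3 a STAT motif at 154 to 146.
Il6: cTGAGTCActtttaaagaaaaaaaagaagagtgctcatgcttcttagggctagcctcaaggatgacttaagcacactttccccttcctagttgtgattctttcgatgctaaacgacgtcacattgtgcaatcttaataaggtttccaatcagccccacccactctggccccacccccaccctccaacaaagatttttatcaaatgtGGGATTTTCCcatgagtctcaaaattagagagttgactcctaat
Socs3: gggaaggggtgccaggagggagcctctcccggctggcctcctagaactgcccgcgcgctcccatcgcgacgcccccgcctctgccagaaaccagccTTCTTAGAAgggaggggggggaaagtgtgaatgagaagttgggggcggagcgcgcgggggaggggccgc

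The motifs were chosen after the sequences were seen, so the shares below are descriptions and no comparison rests on them. The STAT motif, TTCNNNGAA, was found in 1 of the 11 member windows, that of Socs3, and in 7.02% of 32851 RefSeq windows of the same length. The AP-1 motif, TGANTCA, was found in 3, those of Il6, Il11 and Lif, and in 6.75% of all windows. The NF-kB consensus was found in 2, those of Il6 and Lif, and in 7.25% of all windows. None of the motifs overlapped another in the printed windows. A match is a stretch of letters, not a measured binding site.

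The first question is which members changed with the ligature in each genotype. In the WT, Osm was the member called, at 5.56-fold higher in ligated than in naive tissue. In the libraries labelled CybbKO, 5 of the 10 members were called, all higher in ligated tissue: Il6, Osm, Osmr, Socs3 and Stat3. The background was 3.20% of all genes tested called in the WT and 13.0% in CybbKO, with 2.31% and 9.95% called as higher. The median log2 fold change of the members was 0.33 in the WT and 0.50 in CybbKO, where that of all genes was -0.03 in both. Naive and ligated libraries did not overlap for 5 members in the WT, against 24.9% of all genes, and for 6 in CybbKO, against 31.4%. Of the 10 members, 9 passed the filter on low counts in all libraries. Il6 reached the filter's level of 0.275 CPM in 0 of 6 naive libraries, 1 of 3 WT ligated libraries and 3 of 3 CybbKO ligated libraries, so it was tested because it was high in ligated tissue. Without Il6, 4 of 9 members were called in CybbKO and 1 of 9 in the WT.

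**Figure D1:**
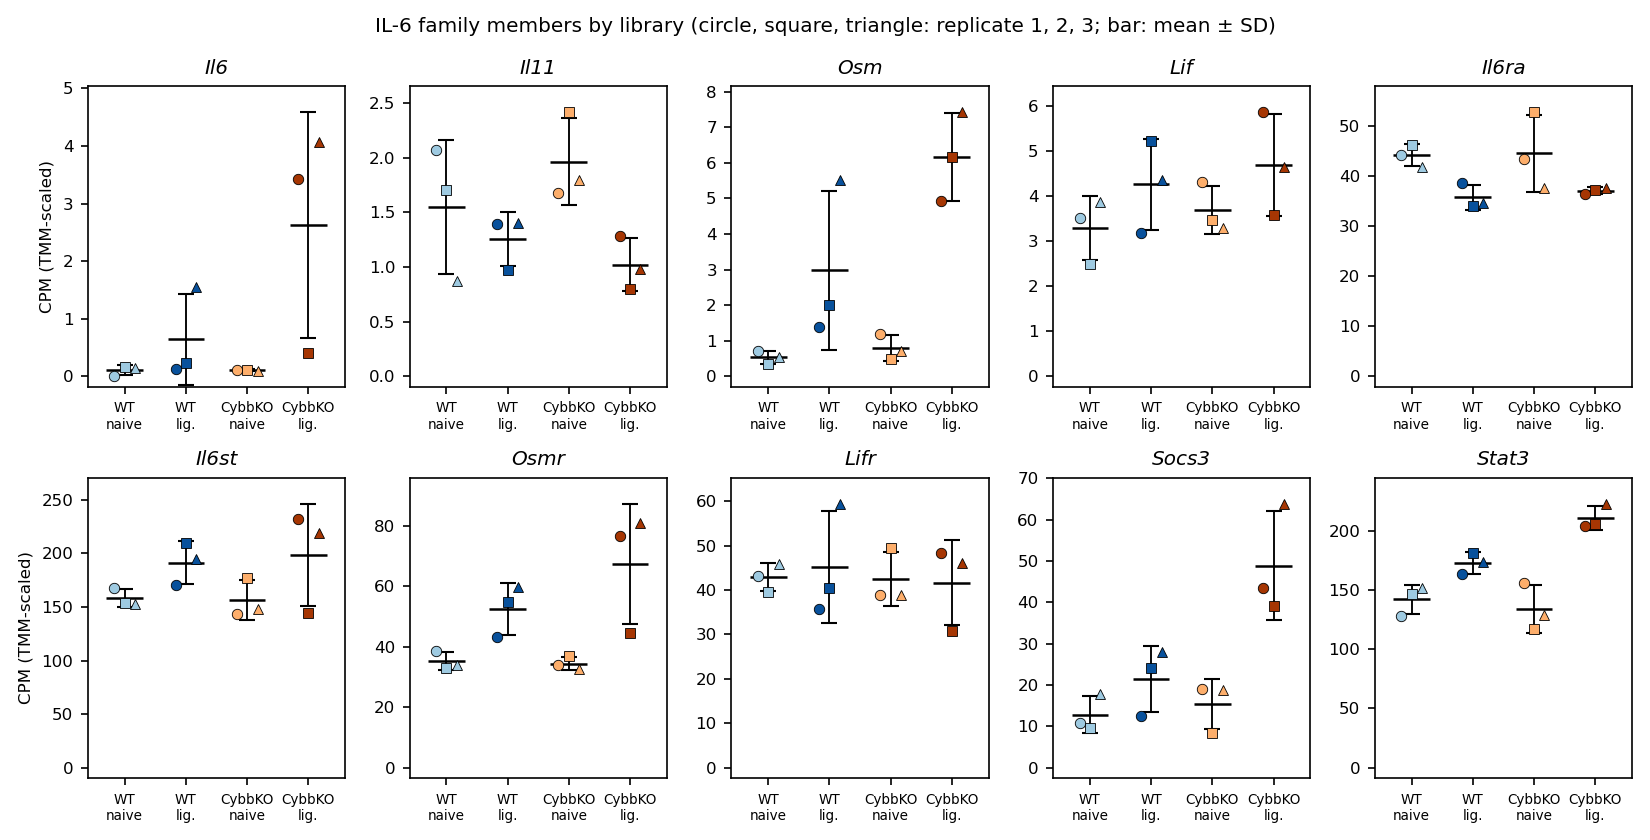
Level of each of the 10 members in CPM (vertical axis, linear, a scale of its own in each panel) in the 4 groups, with a point for each library (circle, square and triangle for replicates 1, 2 and 3) and the mean ± SD of 3 libraries, whose lower bar is cut off below 0 for Il6. Il6, Osm, Lif, Il6st, Osmr, Socs3 and Stat3 have their highest mean in the CybbKO ligated group, and the square of that group, replicate 2, lies far below the other points for Il6 and Osmr.

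Among the ligands, Il6 (ENSMUSG00000025746; chromosome 5, 30013114 to 30019981 of GRCm38, plus strand), the founding cytokine of the family, was close to the floor of detection in naive tissue. It had 0, 5 and 4 counts in the 3 WT naive libraries and 4, 4 and 3 in the CybbKO naive libraries. In ligated tissue it had 5, 9 and 60 counts in the WT libraries, or 0.124, 0.236 and 1.56 CPM, and 131, 15 and 178 in the CybbKO libraries, or 3.42, 0.401 and 4.06 CPM. A single WT library lay well above the naive range, while all 3 CybbKO libraries lay above every naive library and 2 of them far above. The log2 fold change with ligature was 4.59 in CybbKO (standard error 1.12, 95% interval 2.14 to 7.04, adjusted p = 0.0208) and 2.65 in the WT (standard error 1.18, 95% interval 0.07 to 5.22, adjusted p = 0.239). The CybbKO call was lost without any 1 of its 6 libraries other than ligated replicate 2, with log2 fold changes of 4.13 to 4.65 and adjusted p-values of 0.0645 to 0.0761. The WT value was 0.83 without ligated replicate 3.

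Osm (ENSMUSG00000058755; chromosome 11, 4236420 to 4241026, plus strand) encodes oncostatin M, a cytokine made mainly by neutrophils, macrophages and T cells. Its level was 0.701, 0.348 and 0.547 CPM in WT naive, 1.39, 2.01 and 5.53 in WT ligated, 1.18, 0.472 and 0.702 in CybbKO naive and 4.94, 6.15 and 7.42 in CybbKO ligated libraries. Ligated and naive libraries did not overlap in either genotype, and WT ligated replicate 3 reached the CybbKO ligated range. With ligature it was higher by 2.48 on the log2 scale in the WT (standard error 0.53, adjusted p = 0.0327) and 2.97 in CybbKO (standard error 0.52, adjusted p = 0.00469). The WT call was kept without ligated replicate 1 and lost without any other of the 6 WT libraries, with adjusted p-values of 0.0509 to 0.150, and its value was 1.67 without ligated replicate 3. The CybbKO call was kept under all 13 alternatives.

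The other 2 ligands were not called in either genotype. Lif (ENSMUSG00000034394; chromosome 11, 4257557 to 4272514, plus strand), the leukemia inhibitory factor, is the neighbour of Osm on the same strand, 16530 bases away with 0 genes of the table between them. Its level was 3.29 ± 0.707 CPM in WT naive, 4.25 ± 1.02 in WT ligated, 3.69 ± 0.538 in CybbKO naive and 4.69 ± 1.13 in CybbKO ligated libraries, and the groups overlapped. For Lif the log2 fold change was 0.37 in the WT (95% interval -0.21 to 0.95) and 0.35 in CybbKO (95% interval -0.23 to 0.92), where Osm beside it had values of over 2. Il11 (ENSMUSG00000004371; chromosome 7, 4772373 to 4782859, minus strand), a cytokine of stromal cells, was the ligand with lower values in ligated tissue. It had 1.67, 2.41 and 1.80 CPM in CybbKO naive and 1.28, 0.802 and 0.981 in CybbKO ligated libraries, which did not overlap. Its log2 fold change there was -0.94 (standard error 0.34, adjusted p = 0.0959 from edgeR and 0.0484 from DESeq2), and in the WT it was -0.31 (95% interval -1.06 to 0.44).

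Of the receptor chains, Osmr (ENSMUSG00000022146; chromosome 15, 6813577 to 6874969, minus strand), which pairs with gp130 to receive oncostatin M, was the one called. It had 38.6, 33.1 and 34.1 CPM in WT naive, 43.1, 54.7 and 59.6 in WT ligated, 33.9, 36.8 and 32.5 in CybbKO naive and 76.6, 44.4 and 80.9 in CybbKO ligated libraries. Every ligated library was above every naive one in both genotypes, with CybbKO ligated replicate 2 inside the WT ligated range. The log2 fold change was 0.97 in CybbKO (standard error 0.20, adjusted p = 0.0104) and 0.57 in the WT (standard error 0.20, 95% interval 0.13 to 1.02, adjusted p = 0.142). Without CybbKO ligated replicate 1 or 3 the adjusted p was 0.0511 and 0.0503, with log2 fold changes of 0.86 and 0.81.

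Il6st (ENSMUSG00000021756; chromosome 13, 112464070 to 112510086, plus strand), the shared gp130 chain, was among the abundant members in all groups. Its level was 158 ± 8.42 CPM in WT naive and 191 ± 19.9 in WT ligated libraries, and 156 ± 18.4 and 199 ± 47.6 in the CybbKO libraries. Its log2 fold change was 0.27 in the WT and 0.34 in CybbKO, with adjusted p-values of 0.396 and 0.210. It was not called, but without CybbKO ligated replicate 2, which at 144 CPM lay near the naive level while the other 2 had 232 and 219, its log2 fold change was 0.53 and its adjusted p 0.0165. Leaving out replicate 1 of that group in its place gave 0.22, with an adjusted p of 0.569.

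Il6ra and Lifr were not called in either genotype. Il6ra (ENSMUSG00000027947; chromosome 3, 89864059 to 89913196, minus strand) encodes the IL-6 binding chain, which exists in a membrane-bound form on leukocytes and hepatocytes and in a soluble form. It had 44.4, 46.3 and 41.9 CPM in WT naive and 38.7, 34.0 and 34.6 in WT ligated libraries, which did not overlap, and its log2 fold change was -0.31 (standard error 0.13, adjusted p = 0.213). In CybbKO it was -0.26 (95% interval -0.54 to 0.02), and the groups overlapped. Lifr (ENSMUSG00000054263; chromosome 15, 7090614 to 7197489, plus strand), the receptor chain for leukemia inhibitory factor, is the neighbour of Osmr on the opposite strand, 215644 bases away with 0 genes of the table between. Its log2 fold change was 0.08 in the WT (95% interval -0.39 to 0.54) and -0.03 in CybbKO (95% interval -0.49 to 0.43), and 0.06 in CybbKO when counts were scaled by library size only. Its levels ran from 30.7 to 59.4 CPM over all 12 libraries, the lowest in CybbKO ligated replicate 2 and the highest in WT ligated replicate 3.

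Stat3 (ENSMUSG00000004040; chromosome 11, 100885098 to 100939540, minus strand), the transcription factor of the pathway and itself a STAT3 target, showed small differences with little spread. It had 128, 147 and 151 CPM in WT naive, 163, 182 and 174 in WT ligated, 156, 117 and 129 in CybbKO naive and 204, 206 and 223 in CybbKO ligated libraries. Ligated libraries lay above naive ones in both genotypes. The log2 fold change was 0.65 in CybbKO (standard error 0.12, 95% interval 0.39 to 0.92, adjusted p = 0.00626), or 1.57-fold, and 0.28 in the WT (standard error 0.12, 95% interval 0.02 to 0.55, adjusted p = 0.224). The CybbKO call was kept under all 13 alternatives.

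Socs3 (ENSMUSG00000053113; chromosome 11, 117966079 to 117970047, minus strand), the feedback inhibitor with the STAT motif printed above, had 10.8, 9.71 and 17.9 CPM in WT naive, 12.4, 24.1 and 27.9 in WT ligated, 19.02, 8.46 and 18.7 in CybbKO naive and 43.6, 39.2 and 63.8 in CybbKO ligated libraries. The WT groups overlapped, and the 3 CybbKO ligated libraries were above all 9 others. The log2 fold change was 1.67 in CybbKO (standard error 0.38, adjusted p = 0.0146), or 3.17-fold, and 0.74 in the WT (standard error 0.37, 95% interval -0.07 to 1.56, adjusted p = 0.292). Without CybbKO ligated replicate 3 the CybbKO value was 1.43, with an adjusted p of 0.0636.

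**Figure D2:**
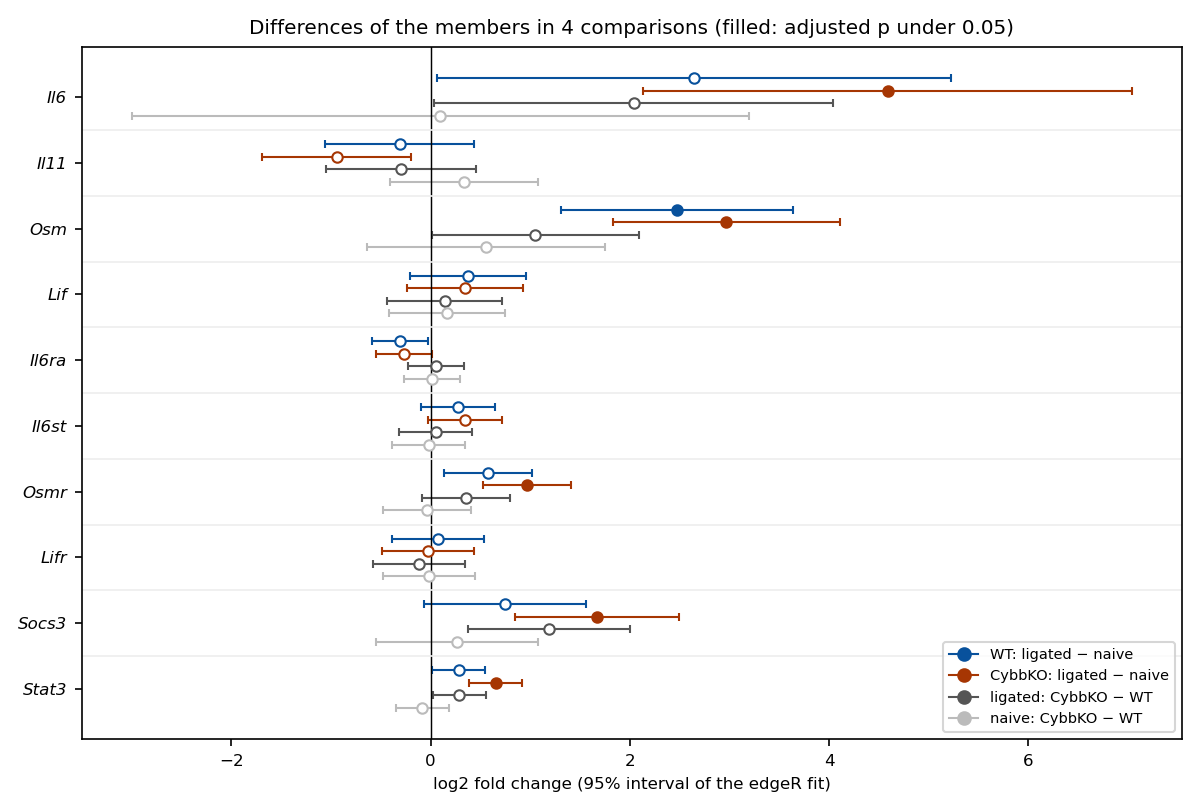
Log2 fold change of each of the 10 members (horizontal axis) with its 95% interval from the edgeR fit, for ligated against naive tissue in the WT and in CybbKO, and for the genotypes, CybbKO against WT, in each kind of tissue, with filled points for an adjusted p under 0.05. Filled points are Osm in the WT and Il6, Osm, Osmr, Socs3 and Stat3 in CybbKO for the ligature, and no member has a filled point for the genotype.

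The second question is whether the members differed between the libraries labelled CybbKO and WT. The ligated libraries compared here also enter the ligature comparisons above, so the values are not independent. In ligated tissue 0 of 10 members were called by edgeR and 0 by DESeq2, where edgeR called 0.00665% of all genes, which is Cybb alone. At an unadjusted p under 0.05 there were 4 members, Il6, Osm, Socs3 and Stat3, against 3.34% of all genes, and all 4 were higher in CybbKO. Without Il6, which was tested because it was high in ligated and above all in CybbKO ligated tissue, there were 3 of 9. The libraries did not overlap for 2, Socs3 and Stat3, against 7.84% of all genes. The median log2 difference of the members was 0.21, where that of all genes was 0.01. The log2 difference of Socs3 was 1.19 (standard error 0.37, 95% interval 0.38 to 2.00, unadjusted p = 0.00788, adjusted p = 1.00), with an adjusted p of 0.258 from DESeq2. For Stat3 it was 0.29 (95% interval 0.02 to 0.55), with 3 of 3 CybbKO libraries above every WT library. Both had p = 0.1 in an exact two-sided permutation test, the smallest that 3 libraries against 3 can give. For Osm it was 1.05 (95% interval 0.01 to 2.09), and leaving out WT ligated replicate 1 or 3 made it 0.69 or 1.85. Il6 had a log2 difference of 2.04 (95% interval 0.04 to 4.04), which the same omissions made 1.54 or 3.85. The receptor chains had intervals that included 0, with Osmr at 0.36 (95% interval -0.08 to 0.80), Il6st at 0.05 (-0.31 to 0.42), Il6ra at 0.05 (-0.23 to 0.33) and Lifr at -0.12 (-0.58 to 0.34). Leukocyte markers lay in the same direction: the median log2 difference of 12 neutrophil markers was 1.25, with 7 at an unadjusted p under 0.05, and that of 10 monocyte and macrophage markers was 0.54, with 4, while 0 of either list were called by edgeR or DESeq2. Their part in the members' differences was not tested.

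In naive tissue 0 of 10 members were called by edgeR and 0 by DESeq2, where edgeR again called Cybb alone, 0.00665% of genes, and 0 members had an unadjusted p under 0.05, against 2.03% of all genes, or groups that did not overlap, against 5.11%. The 95% intervals of the log2 difference were -0.35 to 0.18 for Stat3, -0.55 to 1.08 for Socs3 and -0.64 to 1.75 for Osm. For Il6, with 9 and 11 counts in all in the 2 groups, the interval of -2.999 to 3.196 is too wide to tell whether the groups differed.

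A test of the difference between the 2 ligature responses called 0 members in edgeR and 0 in DESeq2, 0% of all genes in edgeR, and 0 members had an unadjusted p under 0.05, against 2.27% of all genes. The call of 5 members in CybbKO and 1 in the WT is thus not a shown difference between the genotypes. The fitted response was larger in CybbKO by 0.37 for Stat3 (95% interval -0.01 to 0.75, unadjusted p = 0.0534), by 0.92 for Socs3 (-0.22 to 2.07, unadjusted p = 0.104) and by 0.40 for Osmr (-0.23 to 1.02), on the log2 scale. For Osm it was 0.49 (-1.10 to 2.08) and for Il6 1.94 (-1.86 to 5.75), intervals too wide to set their responses apart. With 1 library left out the difference for Osm lay between 0.13, where WT ligated replicate 1 was omitted, and 1.30, where replicate 3 of that group was, and that for Il6 between 1.42, where WT naive replicate 2 was omitted, and 3.75, where WT ligated replicate 3 was. That of Osmr ran from 0.24 without CybbKO ligated replicate 3 to 0.62 without CybbKO ligated replicate 2, and that of Socs3 was 0.60 without WT naive replicate 3.

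Levels of different members can be compared per length of exon, as RPKM, which is CPM per kilobase. In WT naive tissue the order was Stat3 at 14.9 and Il6st at 14.3, then Il6ra at 5.12, Socs3 at 4.44, Lifr at 3.98 and Osmr at 2.91, then Lif at 0.756, Il11 at 0.745, Osm at 0.234 and Il6 at 0.0417. Neighbours in this order overlapped for Stat3 and Il6st, Il6ra and Socs3, Socs3 and Lifr, and Lif and Il11, and the other neighbours were apart. The receptor and signal genes were thus all above the 4 cytokines in WT naive tissue. In CybbKO ligated tissue the order was Stat3 at 22.1, Il6st at 17.9, Socs3 at 16.9, Osmr at 5.56, Il6ra at 4.30, Lifr at 3.87, Osm at 2.72, Il6 and Lif at 1.08 each and Il11 at 0.491. Neighbours in this order were apart for Stat3 and Il6st, Socs3 and Osmr, Osm and Il6, and Lif and Il11, and the others overlapped. Il6 in replicate 2, at 0.165, was below every library of Il11. Osm was there above the other 3 cytokines in every library, and its lowest library, at 2.17, was above the highest of Il6, at 1.67.

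**Figure D3:**
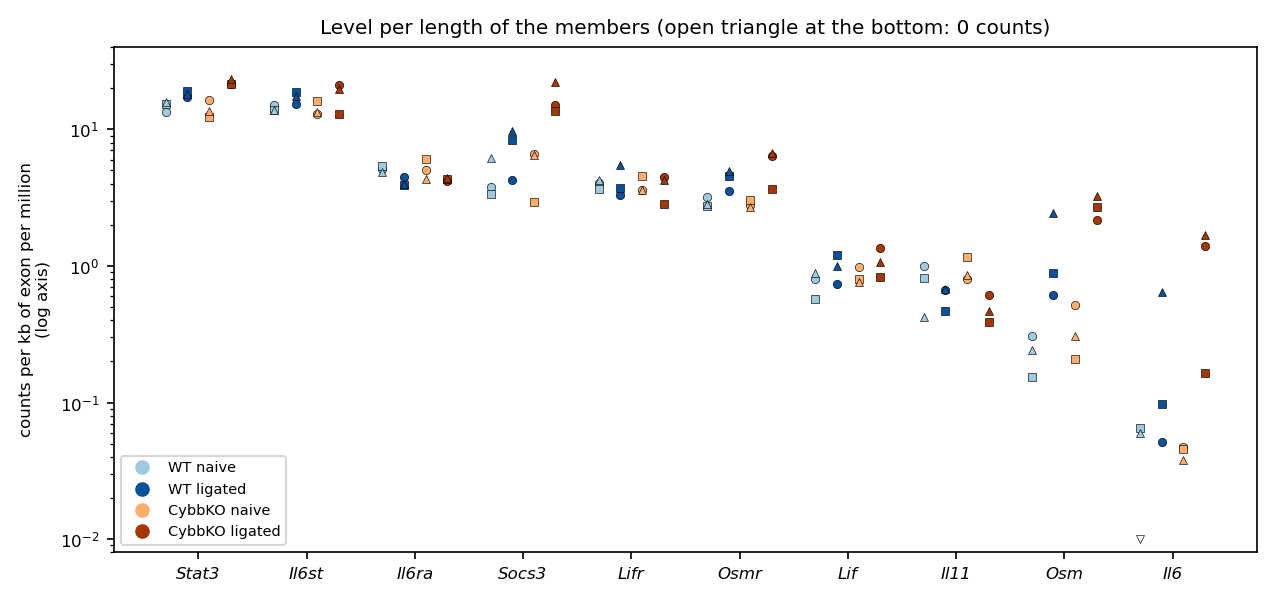
Level of each of the 10 members per length of exon, in RPKM (vertical axis, logarithmic), for each of the 12 libraries, with colours for the 4 groups and circle, square and triangle for replicates 1, 2 and 3. The open triangle at the bottom marks the WT naive library in which Il6 had 0 counts, and Osm and Il6 span the widest range of levels.

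The tested genes nearest to Il6, Osm and Socs3 in their pattern over the 12 libraries were found by the root mean square difference of log2 CPM, each gene centred on its own mean. For Osm, whose own SD over the libraries was 1.47, they were Il1b at 0.357, Lilr4b at 0.397 and Vnn3 at 0.400. Il1b, the gene for interleukin-1 beta, had 15.5 ± 2.89 CPM in WT naive, 55.0 ± 38.9 in WT ligated, 22.8 ± 12.4 in CybbKO naive and 149 ± 44.5 in CybbKO ligated libraries. For Socs3, with an SD of 0.874, they were Il4ra at 0.276, Tyrobp at 0.276 and Slc16a3 at 0.291. For Il6, with an SD of 1.86 and few counts in naive tissue, they were Il24 at 0.639, Mmp3 at 0.715 and Draxin at 0.746. These are descriptions over 12 libraries that share their groups and depth.

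The rest of the pathway was described by 3 lists. The first holds 12 other ligands and receptors of the family, of which 8 passed the filter. Ctf2, Il27, Il31 and Il31ra did not, with 0, 15, 1 and 28 counts over the 12 libraries. With ligature, 1 was called higher and 2 lower in CybbKO, against 13.0% of all genes called and 9.95% called higher. In the WT edgeR called 0, against 3.20% of all genes, and DESeq2 3, where it called 1372 of 15357 genes. At an unadjusted p under 0.05 there were 4, against 19.9% of all genes. Clcf1, a cytokine of the family, had 6.53 ± 0.512 CPM in CybbKO naive and 10.4 ± 1.21 in CybbKO ligated libraries (log2 fold change 0.68, standard error 0.16, adjusted p = 0.0174). Cntfr, the receptor for ciliary neurotrophic factor, fell by 2.61 on the log2 scale (adjusted p = 0.00775, standard error 0.51). Cntfr had values of 12.3, 5.41 and 4.12 CPM in CybbKO naive libraries and 0.914, 2.17 and 0.525 in ligated ones, and in the WT it ran from 3.05 to 4.52 in naive and 0.896 to 1.14 in ligated libraries (log2 fold change -1.91, adjusted p = 0.0648). With each CybbKO library left out in turn the list had 1 to 4 calls, and Cntfr was among them each time. The count was 1 without ligated replicate 3, Cntfr alone, 2 without ligated replicate 1 or naive replicate 1 or 2, and 4 without ligated replicate 2. The call of Clcf1 was lost without ligated replicate 1 or 3 or naive replicate 2, and with only the 6 libraries compared. Il11ra1, the receptor for Il11 and 1 of several near-identical gene copies between which reads could be split, was not called (log2 fold change 0.63, adjusted p = 0.107).

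The second list holds 15 JAK kinases, other STATs, phosphatases, adaptors and inhibitors. With ligature in the WT edgeR called 0 of them and DESeq2 1, where DESeq2 called 1372 of 15357 genes. At an unadjusted p under 0.05 there was 1, against 19.9% of all genes. In CybbKO both tools called 0, with 0 at an unadjusted p under 0.05, against 27.7% of all genes. Their median log2 fold change was 0.01 in the WT and 0.03 in CybbKO. Jak1, the main kinase at gp130, had 199 ± 29.8 CPM in WT naive, 230 ± 9.40 in WT ligated, 194 ± 14.3 in CybbKO naive and 228 ± 40.6 in CybbKO ligated libraries. Between the genotypes in ligated tissue 3 had an unadjusted p under 0.05, against 3.34% of all genes, and 0 were called by either tool. Among them, named after their values were seen, were the phosphatase gene Ptpn6 at a log2 difference of 0.37 and the adaptor gene Grb2 at 0.22.

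The third list holds 20 genes that STAT3 or the acute-phase response is known to induce, and all 20 were tested. In CybbKO 7 were called higher and 2 lower with ligature, where 13.0% of all genes were called and 9.95% called higher. The median log2 fold change was 1.21 against -0.03 for all genes, and 15 of the 20 had a positive value. In the WT edgeR called 0 higher and 2 lower, against 3.20% of all genes called. DESeq2 called 2 as higher, where it called 866 of 15357 genes higher. At an unadjusted p under 0.05 there were 8, against 19.9% of all genes. The median was 0.38, and 14 of the 20 had a positive value. With each CybbKO library left out in turn the count higher ran from 6 to 9, and Serpina3n, Lbp, Saa3, Timp1, Hp and Il4ra were called each time. Serpina3n, an acute-phase protease inhibitor, had 10.1, 5.71 and 7.66 CPM in CybbKO naive and 47.0, 47.1 and 39.7 in CybbKO ligated libraries, against 5.43 to 17.4 in the WT ligated libraries. Its log2 fold change in CybbKO was 2.51 (standard error 0.35, adjusted p = 0.00227). Saa3, a serum amyloid A made by macrophages and stromal cells, had 1.44, 1.03 and 1.28 CPM in CybbKO naive and 251, 35.8 and 236 in CybbKO ligated libraries (log2 fold change 7.12, standard error 1.17, adjusted p = 0.00364). It was low in CybbKO ligated replicate 2, as Il6 and Osmr were. Both genes belong to multigene families between which reads could be split. Lbp, the lipopolysaccharide-binding protein, rose by 2.07 in CybbKO (standard error 0.32) and Timp1, an inhibitor of metalloproteinases, by 3.05 (standard error 0.59). Neither was called in the WT, where the values were 0.91 for Lbp and 1.25 for Timp1. Naive and ligated WT libraries did not overlap for either gene. Saa3 had 2.07, 0.569 and 2.515 CPM in WT naive and 2.66, 8.14 and 49.2 in WT ligated libraries.

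The 3 further genes called higher, named after their values were seen, were the haptoglobin gene Hp at 3.34, the interleukin-4 receptor gene Il4ra at 1.30 and Hif1a at 1.25, and Hif1a was called without CybbKO ligated replicate 2 and lost without any other CybbKO library. The 2 genes that fell, Ccnd1 and Myc, promote cell division. Ccnd1, cyclin D1, had 246 ± 21.8 CPM in WT naive and 90.0 ± 19.5 in WT ligated libraries and 242 ± 3.94 and 74.4 ± 5.20 in the CybbKO libraries, so it was lower in 6 of 6 ligated libraries than in every naive one (log2 fold change -1.45, adjusted p = 0.00243 in the WT and -1.70, adjusted p = 0.000670 in CybbKO). Myc had log2 fold changes of -0.51 in the WT (adjusted p = 0.0247) and -0.65 in CybbKO (adjusted p = 0.00285). The WT call of Myc was lost without any 1 WT library other than naive replicate 3, leaving 1 call, Ccnd1.

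Between the genotypes in ligated tissue 0 of the 20 were called by edgeR and 2 by DESeq2, Hp and Serpina3n. Over all genes edgeR called 0.00665% and DESeq2 18 of 16053. At an unadjusted p under 0.05 there were 5, Serpina3n, Hp, Saa3, Il4ra and Lbp, against 3.34% of all genes. All 5 were higher in CybbKO, and the median was 0.43 against 0.01 for all genes. The test of the difference between the ligature responses called 0 in edgeR and 0 in DESeq2, with 5 at an unadjusted p under 0.05, against 2.27% of all genes.

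**Figure D4:**
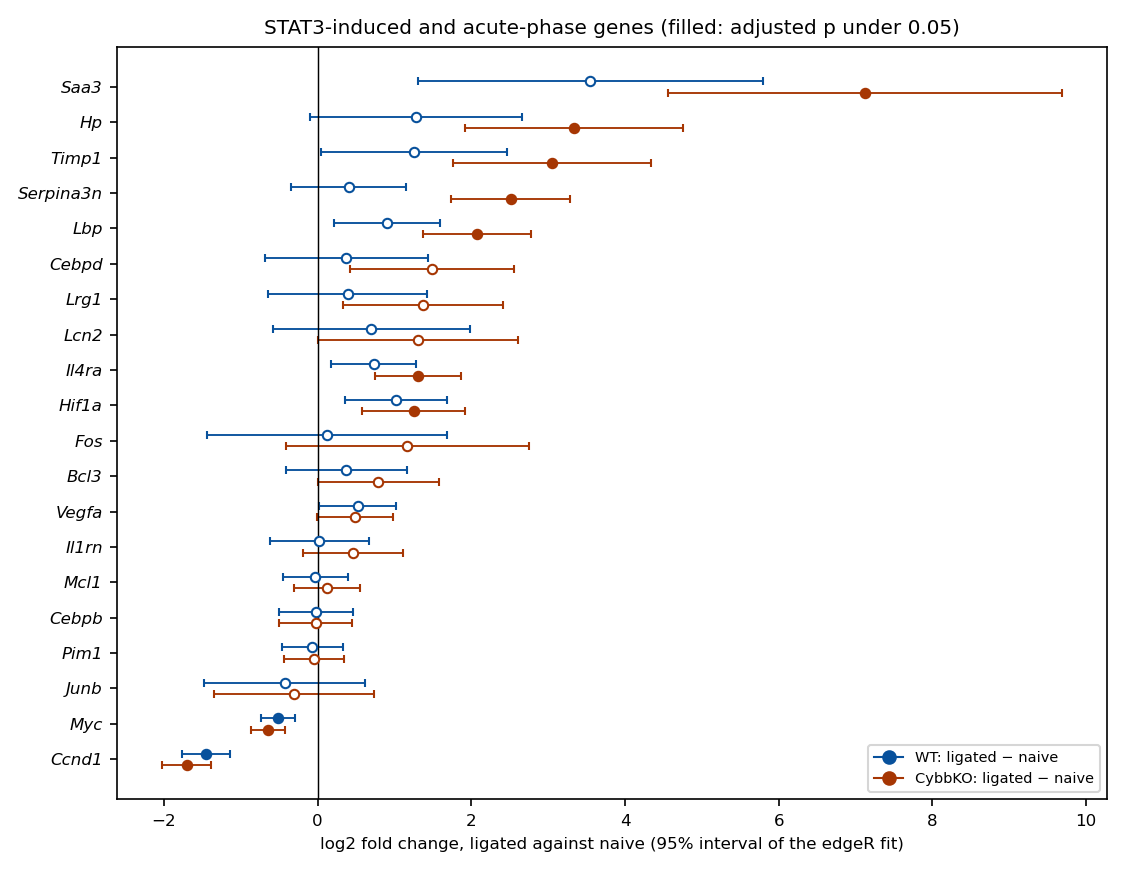
Log2 fold change of the 20 STAT3-induced and acute-phase genes for ligated against naive tissue (horizontal axis) with the 95% interval from the edgeR fit, in the WT and in CybbKO, sorted by the CybbKO value, with filled points for an adjusted p under 0.05. The 7 genes called higher in CybbKO run from Hif1a at 1.25 to Saa3 at 7.12, and Ccnd1 and Myc are filled on the lower side in both genotypes.

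Marker genes of leukocytes and stroma moved with the ligature beside the members, and in bulk tissue more cells of a type and more RNA per cell cannot be told apart. Of the 12 neutrophil markers edgeR called 1 higher in the WT and 10 in CybbKO, where 2.31% and 9.95% of all genes were called higher. DESeq2 called 7 and 11 of them, where it called 1372 of 15357 genes in the WT and 2802 of 15705 in CybbKO. At an unadjusted p under 0.05 there were 9 and 12, against 19.9% and 27.7% of all genes. The summed level of the neutrophil markers ran from 509 to 961 CPM in WT naive, 1633 to 4062 in WT ligated, 928 to 1055 in CybbKO naive and 3016 to 11840 in CybbKO ligated libraries. Of the 10 monocyte and macrophage markers 2 and 9 were called higher by edgeR and 4 and 9 by DESeq2, with sums of 132 to 162 CPM, 193 to 325, 116 to 129 and 270 to 443 in the same order of groups. Of the 8 fibroblast markers 3 and 7 were called higher by edgeR and 5 and 7 by DESeq2, with sums of 1849 to 2981, 5084 to 8133, 1420 to 1921 and 3946 to 10540 CPM. Of the 6 endothelial markers 3 and 5 were called higher by edgeR and 6 and 5 by DESeq2. Ligated libraries thus had higher sums than naive ones for these leukocyte and fibroblast lists in both genotypes, with no overlap.

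Of the 10 oral epithelium markers 0 were called in either genotype by edgeR, with 0 in the WT and 1 in CybbKO at an unadjusted p under 0.05 and the same counts called by DESeq2. Of the 6 T cell markers 0 in the WT (3 at an unadjusted p under 0.05, 0 by DESeq2) and 1 in CybbKO were called higher. Of the 4 B and plasma cell markers tested 0 in the WT (1 at an unadjusted p under 0.05, 0 by DESeq2) and 2 in CybbKO were called lower. Over all 15046 genes edgeR called 348 higher and 133 lower in the WT, and 1497 higher and 457 lower in CybbKO. At an unadjusted p under 0.05 the shares of all genes were 19.9% in the WT and 27.7% in CybbKO. The 8 skeletal muscle and 4 salivary gland markers tested gave 0 calls by edgeR and DESeq2, with 0 at an unadjusted p under 0.05, though the salivary gland sum was 29180 CPM in WT naive replicate 3 and at most 5050 in the other 11 libraries. Smr3a, a salivary gland marker, was at 0 in all CybbKO ligated libraries. In each of the 4 groups, 4 of the 5 salivary gland markers in the count table had a count in every library. CybbKO ligated replicate 2, low for Il6, Osmr, Il6st and Saa3, also had the lowest neutrophil, macrophage and fibroblast sums of its group and the highest oral epithelium sum, 132800 CPM against 88710 and 81600. Its skeletal muscle sum was also the highest of the group, 3549 CPM against 1167 and 1026. The part of these markers in the members' differences was not tested.

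**Figure D5:**
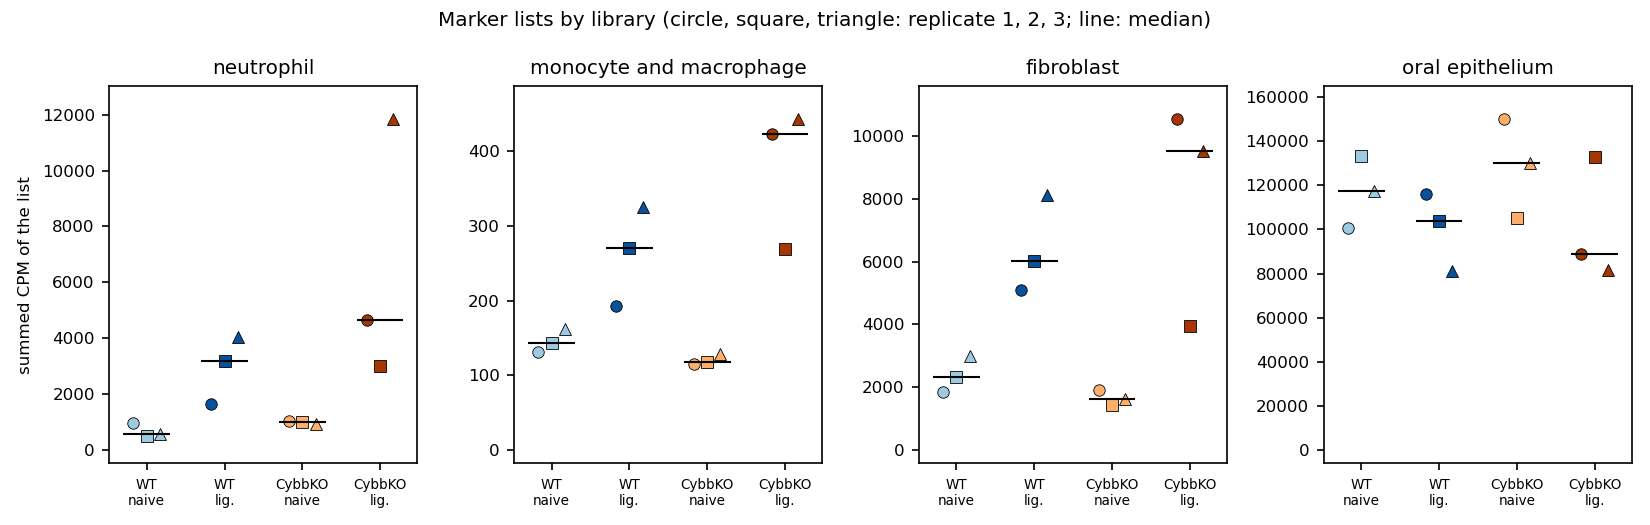
Summed CPM of 4 marker lists (vertical axis, linear, starting at 0, a scale of its own in each panel) in the 4 groups, with a point for each library (circle, square and triangle for replicates 1, 2 and 3) and a line at the median of 3. Ligated libraries are above naive ones for neutrophil, monocyte and macrophage, and fibroblast genes, and CybbKO ligated replicate 2 is the lowest of its group for these 3 lists and the highest for oral epithelium at 132800.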

How the data were processed

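RNA from gingiva was measured in 12 libraries, and the labels gave 4 groups. Raw counts of reads per gene, not normalized, are what the authors deposited. Per the methods, stranded mRNA libraries were sequenced on an Illumina NextSeq, aligned with STAR to GRCm38 and counted by strand with featureCounts. The submitters' processing notes name HTSeq 0.10.0 and FastQC 0.10.1, and which tool made the table was not settled. The labels and methods differ on the age of the mice, and the labels and a figure legend on the side of the ligature.

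Symbols, positions and exon lengths came from GENCODE M21, which matched 21939 of 21965 genes. EdgeR 4.0.16 in R 4.3.3 kept 15046 genes with filterByExpr and fitted 1 mean per group. TMM factors ran from 0.918 to 1.08. With a biological coefficient of variation of 0.240, the spread between libraries exceeds counting error for most members, and low counts add to it for Il6 in naive and WT ligated tissue and for Osm in naive tissue. Exact two-sided permutation tests were run on each member, with 0.1 as their smallest p. The procedure was tested on simulated data. Figures were made in Python 3.11.15 with matplotlib 3.10.9.

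The members and lists were chosen with earlier results of these data known, and the motifs after the sequences were seen. Named were all members, Cybb, up to 6 called genes per list and comparison in order of adjusted p, genes the background speaks of, and the 3 nearest patterns of Il6, Osm and Socs3; 2 genes counted in the lists are not reported here by name. The alternatives were DESeq2 1.42.0, its size factors in edgeR, library size only, no filter, at least 10 counts in every library, the replicate block, only the 6 libraries compared, and each library left out. The counts of the pathway lists were put under these alternatives after seeing the data. Replicates of a group differed with a chi-square per degree of freedom of 36.0 to 219, so none was counted as a duplicate. No column of the table was left unused, 0 in all.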

Additional observations from a re-analysis of the deposited data

How the results depend on the processing

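Of the 5 members called with ligature in CybbKO, Osm and Stat3 were called under every alternative, and the count ran from 2 to 6 with 1 library left out, 2 without ligated replicate 3 and 3 without ligated replicate 1, and was 6 in DESeq2 and 4 where Il6 was not tested because each library had to hold at least 10 counts. In the WT the count of 1 became 0 with only the 6 libraries compared and with the replicate block, and ran from 0 to 1 with 1 library left out. The replicate numbers did not pair the samples: 2 of 18 same-numbered pairs correlated over 0.1, with r from -0.228 to 0.277. Under the block the log2 fold change of Osm in the WT was 2.38 (adjusted p = 0.0518), and no other call of a member changed; among the STAT3-induced genes the WT count was then 1, without Myc. No genotype comparison or difference of responses called a member under any alternative run.

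With 1 library left out, some values that were not called changed sign, and their log2 ranges were as follows. For Lifr they were -0.17 to 0.26 with ligature in the WT, -0.14 to 0.15 in CybbKO (0.059 with library size only), -0.27 to 0.13 between ligated genotypes, -0.14 to 0.044 between naive genotypes and -0.26 to 0.14 for the difference of responses. For Il6st they were -0.075 to 0.24 between ligated genotypes, -0.12 to 0.042 between naive genotypes and -0.057 to 0.26 for the difference of responses. For Lif they were -0.048 to 0.31 between ligated genotypes and -0.21 to 0.15 for the difference of responses. For Il6ra they were -0.13 to 0.12 between naive genotypes and -0.069 to 0.18 for the difference of responses. Between naive genotypes they were -0.51 to 0.62 for Il6, -0.087 to 0.034 for Osmr and -0.21 to 0.0060 for Stat3. The cause was not tested.

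Over all genes, DESeq2 called 1372 against 481 in the WT, 2802 against 1954 in CybbKO, 18 against 1 between ligated genotypes and 2 against 1 between naive genotypes, and the block called 271 in the WT. With 1 library left out the counts ran from 27 without WT naive replicate 2 to 737 without WT naive replicate 3, and from 837 without CybbKO ligated replicate 1 to 2949 without CybbKO ligated replicate 2. Library size only moved the median of all genes by 0.109 in the WT and the share called higher from 72.3% to 87.5%. Depth limits Il6, with at most 5 counts per naive library and 5 and 9 in WT ligated replicates 1 and 2, and Osm, with 11 to 23 counts per WT naive library. Among the 8 other family genes tested, DESeq2 called 5 against 3 in CybbKO, and with only the 6 libraries compared 1 was called in the WT. Of the 20 STAT3-induced genes DESeq2 called 4 against 2 in the WT. These list counts were chosen after seeing the data.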
